A study of Rattus norvegicus with 372 samples.

Results

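The genes described here are 38 collagens, matrix proteins and genes of stellate cells and myofibroblasts, chosen by symbol: 13 collagen chains, 3 small proteoglycans, 3 matrix glycoproteins, 4 proteases and inhibitors, 3 cross-linking or folding proteins, 8 contractile and cytoskeletal genes, 2 surface markers and 2 CCN proteins. They were looked up in the whole transcriptome (WT) table, in which 36 of the 38 had a probe (Col6a3 and Ctgf had none), and 20 of the 36 passed a minimum mean of 10 counts per well and were tested, among 10191 tested genes of 20946. The other 16 had too few counts for the test and are given by their counts further on.

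The RNA came from primary hepatocytes of male Wistar rats, isolated from 2 animals and cultured between layers of bovine type I collagen in 96-well plates. Wells received 1 of 14 chemicals at a high or a low concentration for 24 h in 0.5% DMSO, the same DMSO alone (vehicle), or culture medium alone, and the medium held albumin, insulin, dexamethasone and EGF in every group. The high and low concentrations were 10000 and 400 µM for acetaminophen, caffeine, isoniazid and valproic acid (labelled Valproic), 450 and 18 µM for chloramphenicol, 400 and 16 µM for diclofenac, 2 and 0.08 µM for doxorubicin, 300 and 12 µM for indomethacin, and 15 and 0.6 µM for ketoconazole. They were 2000 and 80 µM for naproxen, 4000 and 160 µM for ranitidine, 60 and 2.4 µM for simvastatin, 100 and 4 µM for sulfasalazine, and 200 and 8 µM for WY14643, an activator of the nuclear receptor PPARα. TempO-Seq, which ligates pairs of short detector oligos on each transcript and counts the ligated products, was run on the lysates of all wells with the WT probe set and, on the same lysates, with a smaller probe set (ST).

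Each treatment had 3 wells per rat, and vehicle and medium alone had 3 wells each of rat 1 (batch 1) and 6 of rat 2 (batch 2). The wells of a rat are technical replicates of that animal, so the p-values measure mainly the spread between wells, and the rat, the library preparation and the sequencing run cannot be told apart. The WT libraries held 2709504 to 8948654 counts (median 6210462) in rat 1 and 2289425 to 8975207 (median 7220136) in rat 2, and no wells held identical values. In rat 1 the wells of acetaminophen, chloramphenicol, indomethacin, ketoconazole, sulfasalazine and WY14643 lay on a plate without vehicle wells, so that in this animal plate and treatment cannot be told apart for these 6 chemicals.

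Collagens of the fibrillar type (types I, III and V) form the tensile fibres of the liver stroma, and the other chains listed here form microfilaments (type VI), basement membranes (types IV and XVIII) or decorate fibrils (types XII and XIV). Biglycan, decorin and lumican are small proteoglycans that bind collagen fibrils, and Serpinh1 (HSP47) is the chaperone that folds procollagen in the endoplasmic reticulum. In liver most fibrillar collagen is made by hepatic stellate cells, which on activation become contractile myofibroblasts that express Acta2 and Tagln. Cultured hepatocytes themselves express fibronectin, vimentin and contractile genes as they spread, and many contractile genes are targets of the actin-responsive factors MRTF and SRF and, like the CCN genes, of YAP and TEAD.

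Markers of hepatocytes, the labelled cell type, were abundant, and those of stellate cells were detected in part. The 9 measured genes of the hepatocyte list summed to 29187.5 to 33438.9 counts per 1000000 counts of the library (CPM) in the vehicle wells of rat 1 and to 32402.9 to 37753.1 CPM in those of rat 2. Of the stellate cell genes, Des, Gfap and Pdgfrb averaged 0.349, 0.349 and 2.87 counts per well, whereas Reln averaged 1160. Col1a1 and Postn, which define activated stellate cells, were near 0 in the WT table, with 53 and 10 counts over all wells. Probes differ in efficiency, so levels are compared here between wells and not between genes.

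The vehicle wells of the rats differed in these genes. Every well of rat 1 lay above every well of rat 2 for 12 of the 20 tested members, against 11.5% of all tested genes, and below for 3 members, against 13.2% of all tested genes. The 12 were Col3a1, Timp1, Col6a2, Col6a1, Bgn, Col5a1, Sparc, Col1a2, Col14a1, Timp2, Vim and Tpm1, and their mean CPM was 1.1 (Tpm1) to 4.05 (Col3a1) times higher in rat 1. Col3a1, a chain of fibrillar collagen, measured 94.3, 125.4 and 77.0 CPM in rat 1 and 26.9, 19.7, 21.0, 27.6, 19.9 and 31.4 CPM in rat 2. Timp1, an inhibitor of matrix metalloproteinases, measured 143.7, 148.9 and 132.1 CPM in rat 1 and ranged from 27.0 to 48.8 CPM (median 37.2) in rat 2. The 3 members that were lower in rat 1 were Serpinh1, Col18a1 and Cyr61, which were 1.6, 1.54 and 1.38 times higher in rat 2, and the wells of Col12a1, Fn1, Mmp14, Tagln and Tpm2 overlapped. Between the 2 vehicle plates of rat 2 the wells overlapped for 17 of the 20 members, with Col14a1 higher and Fn1 and Mmp14 lower on plate 2. All folds below were therefore fitted with the rat as a block.

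**Figure D1:**
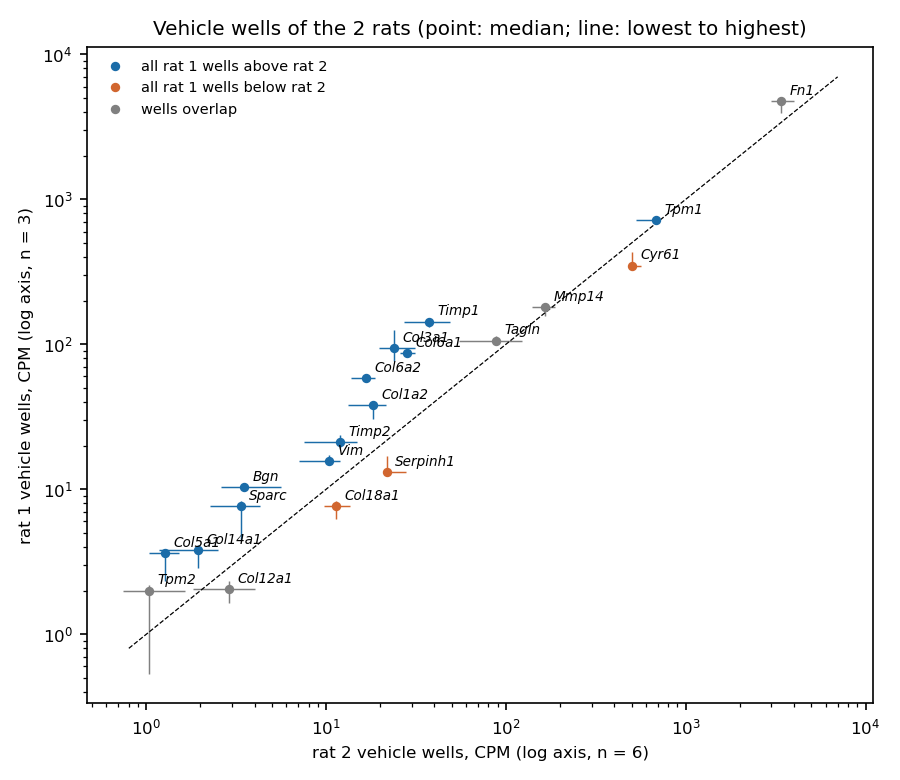
Vehicle wells of the 2 rats. Each point is 1 tested gene, placed at its median CPM in rat 2 (x axis, 6 wells) and rat 1 (y axis, 3 wells), both on log axes, with bars from the lowest to the highest well and a dashed line of equality. Blue points, 12 genes with every well of rat 1 above rat 2, include Col3a1 and Col6a2, and the 3 orange points (Serpinh1, Col18a1, Cyr61) lie below the line.

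At the high concentrations these genes were mostly lower than in vehicle. Of the 280 pairs of a tested member and a high concentration, 201 passed the test (edgeR quasi-likelihood, adjusted p under 0.05), 191 of them lower and 10 higher. That is 71.8% of the member pairs, against 50.9% of all pairs of a gene and a high concentration. By direction, 68.2% of the member pairs were lower and 3.57% higher, against 25.5% and 25.4% of all pairs. Of the 201, 180 could be fitted in each rat alone and 179 of these had the same sign in both. The ST assay tested 17 of the same members, which had 197 WT calls over all 29 comparisons, low concentrations and medium alone included. In the ST assay 196 of these 197 calls had the same sign, and 180 were called there too. As the assays shared lysates, this compares probes and libraries, not cultures.

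The largest numbers of members fell with the acidic anti-inflammatory drugs indomethacin, diclofenac and naproxen and with caffeine. In indomethacin all 20 tested members fell, against 27.6% of all tested genes, in diclofenac 19 fell, against 35.8%, and in naproxen 18 fell, against 26.2%. In caffeine 18 members fell, against 31.6% of all tested genes, and in ranitidine and in chloramphenicol 16 fell, against 33.9% and 17.2%. Ketoconazole lowered 14 members, against 26.3% of all tested genes, and WY14643 lowered 12, against 25.3%. In valproic acid 15 members fell, against 33.2% of all tested genes, and 3 rose, against 33.5%. In acetaminophen 11 fell and 3 rose, against 40.1% and 38.8% of all tested genes, and in doxorubicin 9 fell and 3 rose, against 10.3% and 9.07%. Simvastatin lowered 9 members and raised 1, against 12.5% and 11.4% of all tested genes. Sulfasalazine and isoniazid lowered 7 members each, against 19.6% and 17.3%, and with replicate 1 of every group left out isoniazid lowered 4. The authors report that cell viability, measured by ATP, was lowest with indomethacin and valproic acid at their high concentrations. The part of viability in these counts was not tested.

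The rats alone gave other counts in some treatments. Each rat was fitted with its own count minimum, which the 20 members and also Dcn and Mmp2 passed in rat 1, and 18 of the 20, without Col5a1 and Col14a1, in rat 2. With chloramphenicol 5 members passed in rat 1 and 15 in rat 2, and with sulfasalazine 4 passed in rat 1 and 11 in rat 2. With simvastatin 7 passed in rat 1 and 6 in rat 2. In the other treatments at the high concentration, the count was 5 to 20 in rat 1 and 8 to 17 in rat 2.

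The median log2 fold change (L2FC) of the 20 members was lowest in caffeine (-2.5), diclofenac (-1.72), valproic acid (-1.21) and ranitidine (-1.19). It was nearest to 0 among the high concentrations in isoniazid (-0.22), sulfasalazine (-0.32) and simvastatin (-0.34). The median of all tested genes lay between -0.03 and 0.05 in these comparisons. With scaling to library totals the median of all genes moved by -0.41 in acetaminophen, 0.27 in valproic acid and -0.23 in WY14643. The members then split into 17 lower and 1 higher in acetaminophen, 14 lower and 5 higher in valproic acid, and 19 lower in WY14643. No called member changed direction under that scaling.

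**Figure D2:**
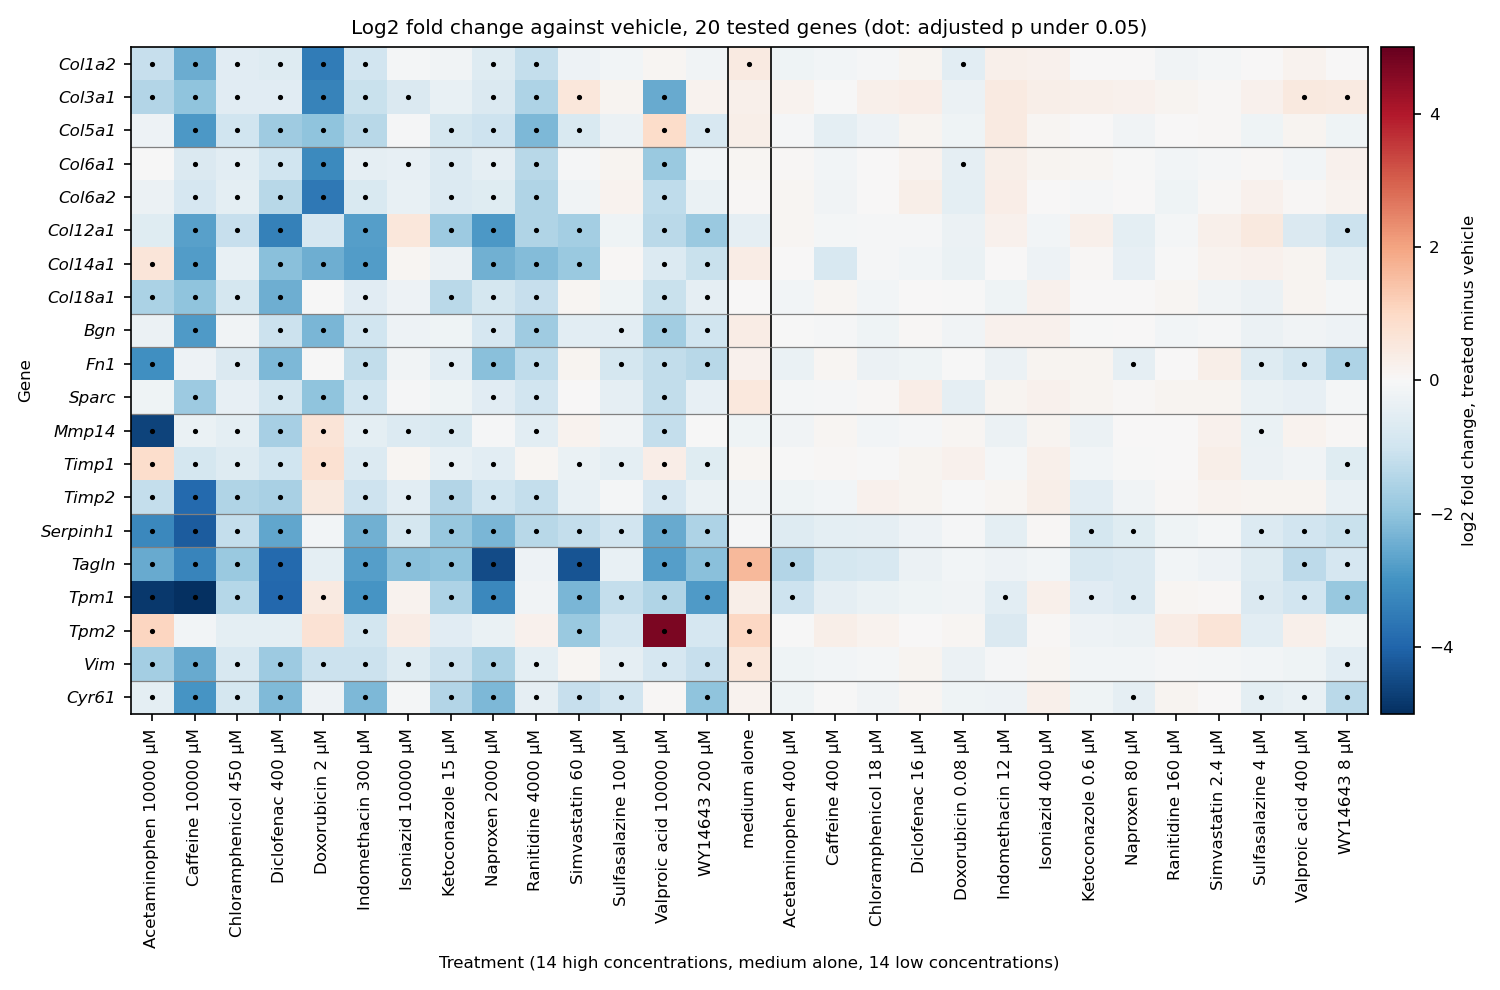
Log2 fold change against vehicle (colour, blue lower and red higher, scale from -5 to 5) of the 20 tested genes (rows, grouped by role) in the 14 high concentrations, medium alone and the 14 low concentrations (columns). Dots mark calls at an adjusted p under 0.05, of which 201 lie in the high concentrations, 4 in medium alone and 31 in the low concentrations.

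Among the fibrillar collagens, Col1a2, Col3a1 and Col5a1 were tested, and 28 of their 42 pairs at the high concentrations fell and 2 rose. Col3a1 fell in 10 treatments, most in doxorubicin (-3.34), valproic acid (-2.53) and caffeine (-2.02), and rose in simvastatin (0.56). In simvastatin Col3a1 measured 109.8, 124.2 and 131.5 CPM in rat 1, overlapping with vehicle, and 36.4, 42.3 and 37.1 CPM in rat 2, all above the vehicle wells of that rat, and the rise gave an adjusted p of 0.00547 (SE 0.16). This call of Col3a1 was lost with replicate 3 of every group left out (0.48, adjusted p = 0.1), with wells summed (adjusted p = 0.117) and in rat 1 alone (adjusted p = 0.154). Col5a1, a minor chain of the same fibres, rose in valproic acid (L2FC 0.92, SE 0.24, adjusted p = 0.000495), with 4.9, 5.89 and 2.74 CPM against 2.32 to 3.64 CPM in rat 1 and 3.34, 4.68 and 4.71 CPM against 1.03 to 1.53 CPM in rat 2. The wells of Col5a1 overlapped in rat 1 and did not in rat 2. Col1a2 fell in 8 treatments and was not called in valproic acid (L2FC 0.11, adjusted p = 0.511), where rat 1 gave 0.62 and rat 2 gave -0.24.

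Among the other collagens, 48 of 70 pairs fell and 1 rose. Col6a1 and Col6a2, chains of the microfibrillar type VI collagen, fell in 10 and 9 treatments. Of all pairs of tested members they had the most similar CPM over the 30 conditions, with Pearson's r of 0.96 in each rat on log2(CPM + 1). Genes measured in the same wells share library and depth, so r is given as a description. Col12a1, which decorates fibrils, fell in 10 treatments and by most in diclofenac (-3.37), naproxen (-2.87) and indomethacin (-2.77), in wells that held at most 0.569 CPM under indomethacin against 1.64 to 2.32 CPM (rat 1) and 1.81 to 4.05 CPM (rat 2) in vehicle. Col18a1, the source of endostatin, fell in 10 treatments, by most in diclofenac (-2.43), and Col14a1 fell in 9 and rose in acetaminophen (0.59, adjusted p = 0.0134), a call that is lost with replicate 3 of every group left out (0.18, adjusted p = 0.55).

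Of the proteoglycans and glycoproteins, Bgn (biglycan) fell in 9 of 14 treatments, by most in caffeine (-2.82) and doxorubicin (-2.29). Sparc, a collagen-binding protein, fell in 7. Bgn and Sparc had correlated CPM (r = 0.9 in rat 1 and 0.92 in rat 2 over 30 conditions). Fn1 (fibronectin, which hepatocytes secrete) fell in 10 treatments, by most in acetaminophen (-3.08), diclofenac (-2.26) and naproxen (-2.09), and was not called in caffeine (-0.26, adjusted p = 0.0979), isoniazid, doxorubicin or simvastatin. In acetaminophen Fn1 measured 265.1, 299.1 and 262.6 CPM in rat 1 against 4898.4, 4743.0 and 3950.4 CPM in vehicle, and 405.2, 515.2 and 290.7 CPM in rat 2 against 2997.8 to 4006.6 CPM (median 3399.4). The wells lay far apart in both rats.

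Of the proteases and inhibitors, Timp2 fell in 10 treatments, by most in caffeine, where it measured 1.74, 2.5 and 0.762 CPM against 19.4, 23.8 and 21.1 CPM in rat 1 and 0.254, 0.254 and 1.05 CPM against 7.5 to 14.8 CPM (median 12.0) in rat 2. This was an L2FC of -3.87 (SE 0.3, adjusted p = 6.61e-26), with no overlap in either rat. Mmp14, a membrane-bound collagenase, fell by most in acetaminophen, to 4.4, 7.99 and 7.05 CPM in rat 1 and 4.81, 6.16 and 1.58 CPM in rat 2, against 157.9 to 189.7 and 139.3 to 186.5 CPM in vehicle (L2FC -4.63, SE 0.15, adjusted p = 1.04e-66). Its next lowest L2FC was -1.65 in diclofenac. Timp1 fell in 9 treatments, none by more than 1.01 on the log2 scale, and rose in acetaminophen (0.88), doxorubicin (0.77) and valproic acid (0.32). The call of Timp1 in valproic acid was lost with replicate 2 or replicate 3 of every group left out (adjusted p = 0.0757 and 0.137), in rat 1 alone (0.151), with wells summed (0.0907) and with no count minimum (0.0579).

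Serpinh1 was called lower in 13 of the 14 high concentrations, as often as Vim, and was not called in doxorubicin (-0.12, adjusted p = 0.72). Its fall was largest in caffeine, where it measured 1.39, 1.16 and 0.952 CPM against 16.9, 13.1 and 13.0 CPM in rat 1 and 0.89, 0.634 and 1.05 CPM against 21.6 to 27.7 CPM (median 21.8) in rat 2. The L2FC was -4.15 (SE 0.27, adjusted p = 9.78e-32), and treated and vehicle wells did not overlap. In acetaminophen, diclofenac, valproic acid, indomethacin and naproxen the L2FC of Serpinh1 lay between -3.22 and -2.3.

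Markers of other cell types also moved in these treatments. In caffeine the 7 stellate cell markers that are not members summed to 51.6 to 89.5 CPM in rat 1 and 42.1 to 49.5 CPM in rat 2, against 274.9 to 355.4 and 239.8 to 317.1 CPM in vehicle, and 3 of the 4 tested ones fell (median L2FC -1.7). The 9 Kupffer cell genes summed to 10.9 to 14.2 CPM in rat 1 and 6.16 to 14.5 CPM in rat 2, against 47.3 to 55.0 and 33.5 to 47.0 CPM in vehicle. The endothelial genes overlapped vehicle in both rats in caffeine, and of the 9 hepatocyte markers 4 fell and 4 rose. In diclofenac all 9 tested hepatocyte markers (median L2FC -2.56), all 4 stellate (-2.53), all 3 cholangiocyte (-2.27) and 5 of 6 Kupffer cell markers (-1.74) fell, and the other Kupffer cell marker, Cd68, rose. In indomethacin 5 of 6 Kupffer cell markers (-1.77), 3 of 4 stellate (-1.15) and 2 of 3 cholangiocyte markers (-0.99) fell, while 1 stellate marker rose and of the 9 hepatocyte markers 2 fell and 3 rose. In naproxen 4 of 6 Kupffer cell (-1.49), 2 of 4 stellate (-0.63), 2 of 3 cholangiocyte (-1.59) and 6 of 9 hepatocyte markers (-0.68) fell, and 1 cholangiocyte and 2 hepatocyte markers rose. In ketoconazole 7 of 9 hepatocyte (-1.15), 5 of 6 Kupffer cell (-0.89) and 3 of 4 stellate markers (-1.19) fell, and 1 hepatocyte and 1 Kupffer cell marker rose, while of the 3 cholangiocyte markers 1 fell and 1 rose. In WY14643 the stellate markers summed to 97.7 to 106.2 CPM in rat 1 and 82.8 to 88.3 CPM in rat 2, below vehicle, with 2 of 4 lower and 1 higher, while of the hepatocyte markers 2 fell and 5 rose and of the Kupffer cell markers 1 fell and 1 rose. In chloramphenicol the stellate markers summed to 119.3 to 199.7 and 93.7 to 102.1 CPM, also below vehicle, and 2 of 4 stellate, 2 of 3 cholangiocyte, 2 of 6 Kupffer cell and 3 of 9 hepatocyte markers fell, with 1 hepatocyte marker higher. In sulfasalazine the stellate sum was 158.2 to 189.9 and 136.3 to 197.4 CPM, below vehicle, with 2 of 4 markers lower and 1 higher, no Kupffer cell or cholangiocyte marker was called, and 4 of 9 hepatocyte markers rose. In isoniazid the stellate sum was 378.2 to 420.6 and 381.6 to 417.6 CPM, above vehicle, although 2 of 4 markers fell and 1 rose (median L2FC -0.62), and 8 of 9 hepatocyte markers fell (-0.92). The sum of the 11 endothelial genes lay below vehicle in both rats in indomethacin (2.99 to 6.08 and 2.91 to 4.13 CPM) and ketoconazole (4.01 to 6.46 and 1.52 to 2.43 CPM), and overlapped vehicle in at least 1 rat in diclofenac, naproxen, WY14643, chloramphenicol, sulfasalazine and isoniazid. Their part in the falls of the members was not tested.

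The contractile and cytoskeletal genes fell in 37 of 56 pairs and rose in 3. Tpm1, a tropomyosin that lies along actin filaments, fell in 11 treatments and had the lowest L2FC of any tested member in any comparison, in caffeine (-5.31, SE 0.2, adjusted p = 2.48e-58). There it measured 9.41, 15.2 and 15.8 CPM in rat 1 and 18.2, 14.3 and 21.2 CPM in rat 2, against 722.4, 710.2 and 719.1 CPM and 527.1 to 698.7 CPM (median 682.4) in vehicle. Tpm1 has 2 WT probes, and both were lower there, the first from a median of 627.5 to 7.51 CPM in rat 1 and from 553.1 to 4.58 CPM in rat 2, and the other from 93.5 to 7.7 CPM and from 122.4 to 13.6 CPM. Tagln (transgelin), an actin-binding protein of smooth muscle and myofibroblasts, fell in 11 treatments and was not called in doxorubicin, sulfasalazine or ranitidine. Vim (vimentin) fell in 13 treatments, of which ranitidine had opposite signs in the rats (0.07 in rat 1 and -1.3 in rat 2). Cyr61, a secreted CCN protein, fell in 11, by most in caffeine (-2.94) and indomethacin (-2.25), and was not called in doxorubicin, isoniazid or valproic acid.

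Serpinh1 and Tpm1 had the second most similar CPM of all pairs (r = 0.91 in rat 1 and 0.92 in rat 2 over 30 conditions), and Tpm1 and Cyr61 had 0.87 and 0.79. The promoters of these 3 genes and of Col6a1, which moved differently, are shown so that their sequences can be set beside these values. They are RefSeq sequences of build GRCr8, 250 bases before to 50 after the start of the gene, while the reads were counted on rn6. Capitals mark motifs found on either strand: GGAATG, bound by TEAD factors and read as CATTCC from the opposite strand, the CCAAT box, which reads ATTGG there, the TATA box in the form TATAAA, the AP-1 site in the form TGANTCA, and the heat shock element, 3 inverted repeats of GAA set 2 bases apart. They lie at chr8:76543366-76543665 (minus strand, Tpm1), chr1:163062927-163063226 (minus, Serpinh1), chr2:237225640-237225939 (minus, Cyr61, named Ccn1 in RefSeq) and chr20:11905440-11905739 (plus, Col6a1).
Tpm1: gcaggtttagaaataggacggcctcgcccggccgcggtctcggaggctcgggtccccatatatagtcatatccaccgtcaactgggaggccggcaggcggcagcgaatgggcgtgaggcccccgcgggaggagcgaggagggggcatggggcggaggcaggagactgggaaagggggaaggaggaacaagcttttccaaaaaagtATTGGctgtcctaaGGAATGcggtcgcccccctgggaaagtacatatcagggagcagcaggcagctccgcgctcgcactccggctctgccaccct
Serpinh1: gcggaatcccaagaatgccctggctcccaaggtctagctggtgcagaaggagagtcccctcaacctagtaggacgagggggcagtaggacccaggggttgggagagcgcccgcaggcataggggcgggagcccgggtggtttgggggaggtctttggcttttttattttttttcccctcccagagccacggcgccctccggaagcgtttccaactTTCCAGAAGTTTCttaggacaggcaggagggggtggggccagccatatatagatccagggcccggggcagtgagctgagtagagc
Cyr61: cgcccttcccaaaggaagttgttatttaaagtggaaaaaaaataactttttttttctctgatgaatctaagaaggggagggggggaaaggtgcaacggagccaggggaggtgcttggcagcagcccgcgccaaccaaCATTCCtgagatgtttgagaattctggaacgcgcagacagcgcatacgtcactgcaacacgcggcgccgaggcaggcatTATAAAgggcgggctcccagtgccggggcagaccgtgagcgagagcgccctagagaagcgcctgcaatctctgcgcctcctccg
Col6a1: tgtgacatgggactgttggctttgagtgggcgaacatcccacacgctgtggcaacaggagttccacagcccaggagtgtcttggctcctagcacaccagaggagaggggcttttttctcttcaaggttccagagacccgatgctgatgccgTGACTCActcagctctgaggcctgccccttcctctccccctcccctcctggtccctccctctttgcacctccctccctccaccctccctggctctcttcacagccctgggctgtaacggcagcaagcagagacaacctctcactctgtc

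Promoters were found for 23 of the 38 members. GGAATG was present in 7 of the 23 (Acta2, Ctgf, Cyr61, Loxl1, Sparc, Timp1 and Tpm1), against 14.2% of all 33465 promoters. The CArG box, bound by SRF, was searched only in its strict form CCWWWWWWGG (W for A or T). That form was present in 0, against 1.64%. Looser forms, which SRF can also bind, were not searched, so these promoters may hold some. CCAAT was present in 7, against 37.5% of all promoters, and TATAAA in 5, against 14.2%. The heat shock element was present in Serpinh1 alone, against 0.798% of all promoters, and TGANTCA in Col6a1 alone, against 7.33%. A match is only a match of letters in this window.

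Doxorubicin at 2 µM separated the collagens from the contractile genes most clearly. The median L2FC of the 8 tested collagens was -2.82 and that of the 4 tested contractile and cytoskeletal genes -0.01. Of these collagens 6 fell, while Col12a1 and Col18a1 were not called, and of the contractile genes 1 fell and 1 rose. This difference between gene groups was not tested. Col6a2 measured 6.02, 4.67 and 6.77 CPM in rat 1 against 58.6, 62.6 and 57.7 CPM in vehicle, and 0.483, 0.161 and 2.16 CPM in rat 2 against 13.8 to 18.6 CPM (median 16.6), an L2FC of -3.59 (SE 0.21, adjusted p = 3.22e-34). Col1a2 measured 4.52, 2.8 and 4.95 CPM against 37.9, 39.7 and 30.7 CPM in rat 1 and 0.805, 1.45 and 1.85 CPM against 13.3 to 21.6 CPM (median 18.2) in rat 2. Both genes fell far below the vehicle wells of both rats, with an L2FC of -3.48 (SE 0.19, adjusted p = 1.48e-36) for Col1a2. Col3a1 measured 12.9, 7.74 and 8.75 CPM in rat 1 and 2.42, 2.41 and 2.0 CPM in rat 2 (L2FC -3.34, SE 0.21). Col6a1 measured 12.5, 9.08 and 9.74 CPM against 86.6, 87.6 and 83.2 CPM in rat 1 and 2.25, 2.57 and 3.85 CPM against 25.8 to 31.1 CPM in rat 2 (L2FC -3.2, SE 0.16). Col14a1 (-2.43), Bgn (-2.29), Col5a1 (-2.03), Sparc (-2.0) and Vim (-1.07) also fell, with Vim overlapping vehicle in rat 2.

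The genes that rose in doxorubicin were Timp1, Mmp14 and Tpm1. Mmp14 measured 255.8, 242.3 and 232.3 CPM in rat 1 and 288.6, 290.5 and 304.7 CPM in rat 2, above all vehicle wells (L2FC 0.64, SE 0.11, adjusted p = 9.86e-07). Timp1 rose by an L2FC of 0.77 (SE 0.12), with 247.2, 211.0 and 195.8 CPM in rat 1 and 72.0, 67.4 and 71.7 CPM in rat 2. Tpm1 rose by 0.46 (SE 0.15, adjusted p = 0.0174) and was no longer called without replicate 1 or without replicate 3 of every group (adjusted p = 0.0714 and 0.245). The 8 members that were not called included Fn1 (-0.01), Col18a1 (-0.03), Serpinh1 (-0.12), Cyr61 (-0.25) and Tagln (-0.49, adjusted p = 0.16).

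Markers of other liver cells moved with the collagens in doxorubicin. The 9 measured genes of the Kupffer cell list summed to 4.54 to 8.75 CPM in rat 1 and 4.67 to 8.01 CPM in rat 2, against 47.3 to 55.0 and 33.5 to 47.0 CPM in vehicle, and 5 of the 6 that were tested fell. The 11 endothelial genes summed to 0.836 to 1.87 and 0.462 to 1.45 CPM against 7.62 to 10.2 and 4.49 to 7.08 CPM. Of the 4 tested stellate cell markers that are not members, 3 fell, Hand2 (-3.67), Rgs5 (-2.3) and Reln (-0.32). The sum of the 7 measured ones, 219.4 to 225.9 CPM in rat 1, lay below vehicle (274.9 to 355.4 CPM), and in rat 2, at 253.2 to 263.0 CPM, it lay within the range of vehicle (239.8 to 317.1 CPM). Of the 9 hepatocyte markers 4 fell and 1 rose. No gene of these lists was at 0 in every well. Their part in the result was not tested. In such bulk lysates fewer cells of a type and less RNA per cell cannot be told apart.

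Ranitidine showed the same order of these groups, with a median L2FC of -1.5 for the collagens, all 8 of which fell, and -0.23 for the contractile genes, of which Vim alone fell. Col3a1 measured 38.3, 44.2 and 29.6 CPM in rat 1 and 4.35, 5.5 and 8.13 CPM in rat 2, below all vehicle wells (L2FC -1.55, SE 0.18, adjusted p = 6.03e-14). The contractile genes went apart between the rats. Tpm1 measured 751.7, 944.3 and 774.7 CPM in rat 1, all above vehicle, and 311.3, 264.9 and 467.8 CPM in rat 2, all below it. Tagln measured 131.8, 158.6 and 168.7 CPM in rat 1, also above vehicle, and 25.2, 30.1 and 68.3 CPM in rat 2, where 1 well overlapped the range of vehicle. The 9 hepatocyte markers all fell in ranitidine, with a median L2FC of -1.58, and 5 of the 6 tested Kupffer cell markers fell, with a median of -2.58. The other Kupffer cell marker rose, as did 1 portal fibroblast marker (Entpd2, 0.83), and of the cholangiocyte markers Sox9 rose (2.72) and Epcam fell (-1.54). All 4 tested stellate cell markers that are not members fell too (median L2FC -2.07), and the 7 measured ones summed to 160.5 to 204.7 CPM in rat 1 and 85.8 to 106.5 CPM in rat 2, below vehicle in both. Their part in the result was not tested.

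Simvastatin gave the opposite order, with a median L2FC of -0.22 for the collagens and -2.06 for the contractile genes. Tagln measured 10.8, 5.83 and 7.78 CPM in rat 1 against 99.3, 113.8 and 106.1 CPM in vehicle, and 2.59, 2.01 and 3.85 CPM in rat 2 against 54.6 to 123.2 CPM (median 87.7). The L2FC was -4.32 (SE 0.32, adjusted p = 1.74e-25), and no well overlapped. Tpm1 measured 110.7, 126.5 and 119.5 CPM in rat 1 and 163.6, 147.0 and 133.8 CPM in rat 2 (L2FC -2.28, SE 0.17), again below all vehicle wells. Tpm2 fell too (-1.85, adjusted p = 0.0012), a call lost with replicate 1 of every group left out (-1.35, adjusted p = 0.103). Tpm2 entered the test, and the median of the contractile genes, only through its counts in valproic acid. Of the collagens, Col14a1 (-1.84), Col12a1 (-1.69) and Col5a1 fell, and Col1a2, Col6a1, Col6a2 and Col18a1 were not called. The call of Col5a1 was lost with replicate 1 of every group left out (-0.59, adjusted p = 0.297), and in the ST assay its value was 0.09. Serpinh1 (-1.18) and Cyr61 (-1.14) fell, and Vim (0.09) and Fn1 (0.15) were not called. Of the 6 tested Kupffer cell markers 2 fell, of the 9 hepatocyte markers 6 rose, of the 3 cholangiocyte markers 2 fell and 1 rose, and the 7 stellate cell markers that are not members summed to 123.6 to 169.3 CPM in rat 1 and 131.2 to 135.2 CPM in rat 2, below vehicle in both. Their part in the result was not tested.

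The contractile genes were also the lower group in naproxen (-2.4 against -0.81 for the collagens), acetaminophen (-2.1 against -0.45), WY14643 (-1.64 against -0.38), diclofenac (-2.85 against -1.59), indomethacin (-1.9 against -1.04) and caffeine (-2.91 against -2.24). They were also lower in ketoconazole (-1.31 against -0.68), sulfasalazine (-0.64 against -0.04), chloramphenicol (-1.1 against -0.56) and isoniazid (-0.24 against -0.17), and in valproic acid the medians were close (-1.17 and -1.19). In naproxen Tagln had its lowest L2FC of any treatment, with 7.0, 8.7 and 6.7 CPM in rat 1 and 2.84, 3.65 and 2.29 CPM in rat 2 (-4.48, SE 0.33, adjusted p = 3.92e-27). In WY14643 it measured 17.6, 11.3 and 24.0 CPM in rat 1 and 15.6, 8.61 and 44.1 CPM in rat 2 (-2.1, SE 0.27). All of these wells lay below vehicle. In isoniazid Tagln measured 61.5, 46.9 and 36.7 CPM in rat 1 and 12.5, 10.4 and 12.9 CPM in rat 2 (-2.09, SE 0.27), the only member with an L2FC beyond -1 in that treatment, while Tpm1 was not called (0.18).

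**Figure D3:**
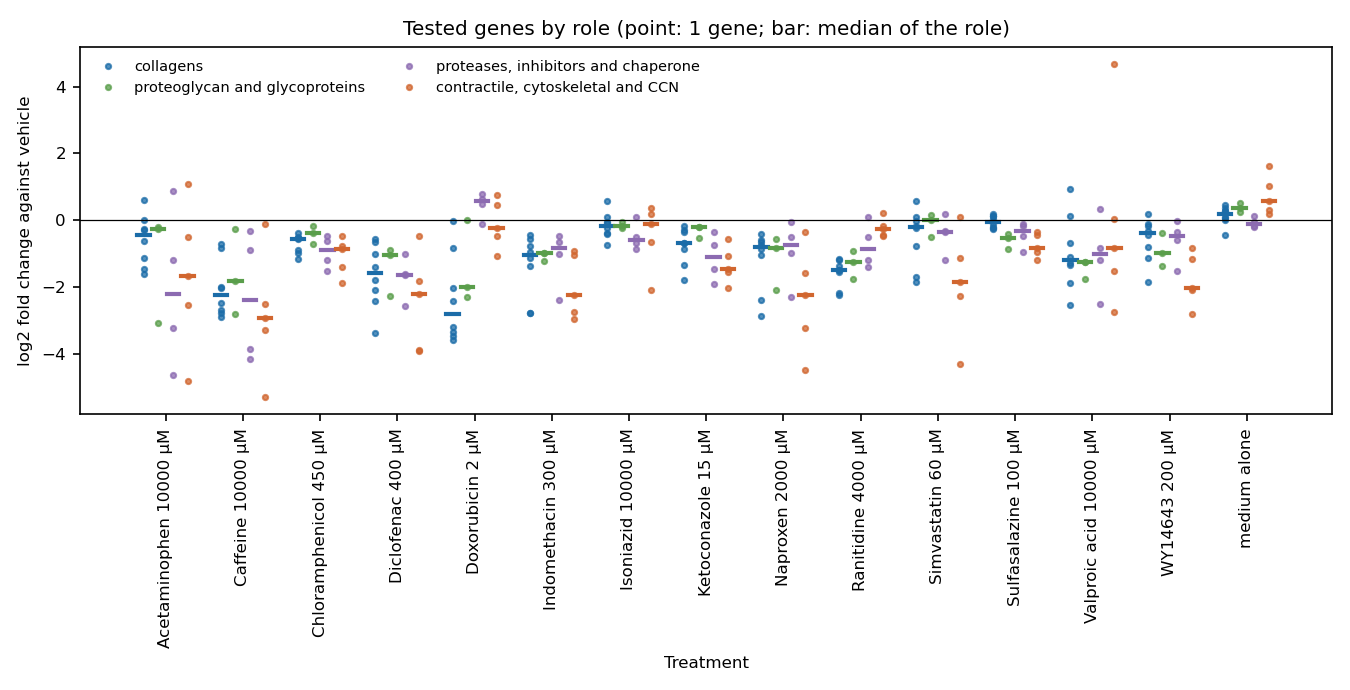
Log2 fold change against vehicle of the 20 tested genes in the 14 high concentrations and medium alone, split into collagens (blue), proteoglycan and glycoproteins (green), proteases, inhibitors and chaperone (purple), and contractile, cytoskeletal and CCN genes (orange). Each point is 1 gene and each bar the median of its group. The lowest point in doxorubicin is blue (Col6a2, -3.59), although Col18a1 (-0.03) lies near 0, and the lowest in simvastatin and naproxen is orange (Tagln, -4.32 and -4.48), and the orange point at 4.69 in valproic acid is Tpm2.

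In acetaminophen 4 genes of different roles fell by more than 3 on the log2 scale. Tpm1 measured 17.0, 23.7 and 18.1 CPM in rat 1 and 15.1, 25.6 and 10.2 CPM in rat 2 (L2FC -4.83, SE 0.2, adjusted p = 4.78e-55), and the others were Mmp14, Serpinh1 (-3.22) and Fn1. All of these wells lay below vehicle. Tagln fell by 2.53 on the log2 scale. Of the 8 collagens Col18a1 (-1.6), Col3a1 (-1.47) and Col1a2 (-1.14) fell and Col6a1 was not called (-0.01), whereas with library totals 7 of the 8 fell, Col6a1 among them. The rise of Timp1 gave an adjusted p of 3.94e-11, with 133.8, 203.2 and 181.6 CPM in rat 1, overlapping vehicle, and 51.4, 68.0 and 53.3 CPM in rat 2, above it. Tpm2 (1.08, adjusted p = 0.00243) overlapped vehicle in both rats and was not called without replicate 1 of every group (0.70, adjusted p = 0.155) or with library totals (0.69, adjusted p = 0.0562). It passed the count minimum only through the valproic acid wells. In these wells 6 of the 9 hepatocyte markers (median L2FC -2.11), 5 of the 6 tested Kupffer cell markers (-1.89) and 2 of the 4 tested stellate cell markers (-1.15) fell, and 1 marker of each of these lists rose. The 7 stellate cell markers summed to 182.1 to 211.3 CPM in rat 1 and 142.6 to 238.7 CPM in rat 2, below vehicle in both, and their part in the result was not tested.

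Valproic acid at 10000 µM gave the largest rise of any tested member. Tpm2, a second tropomyosin, measured 39.5, 44.5 and 40.4 CPM in rat 1 against 2.18, 2.0 and 0.536 CPM in vehicle, and 43.4, 39.1 and 40.8 CPM in rat 2 against 0.741 to 1.65 CPM (median 1.04). The L2FC was 4.69 (SE 0.27, adjusted p = 3.78e-37), 4.47 in rat 1 and 4.85 in rat 2, and 4.74 in the ST assay. Tpm2 averaged 17.1 counts over all wells, with up to 325 in a valproic acid well. It passed the count minimum only through these wells, the group in which it was high. Tpm1 fell in the same wells (-1.51), and Tagln measured 41.1, 36.7 and 36.9 CPM in rat 1 and 9.08, 6.42 and 5.79 CPM in rat 2 (-2.75, SE 0.28). Col3a1 (-2.53), Serpinh1 (-2.52), Col6a1 (-1.87) and Bgn (-1.75) were the next largest falls. In these wells the 9 hepatocyte markers fell (median L2FC -1.24), as did 5 of the 6 tested Kupffer cell markers (median -3.69), while the other rose, and so did 1 cholangiocyte marker. The 7 stellate cell markers that are not members summed to 137.0 to 162.8 CPM in rat 1 and 108.1 to 125.7 CPM in rat 2, with 2 of 4 lower, and the 11 endothelial genes to 1.75 to 2.79 and 1.2 to 2.27 CPM, all below vehicle. Their part in the result was not tested.

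**Figure D4:**
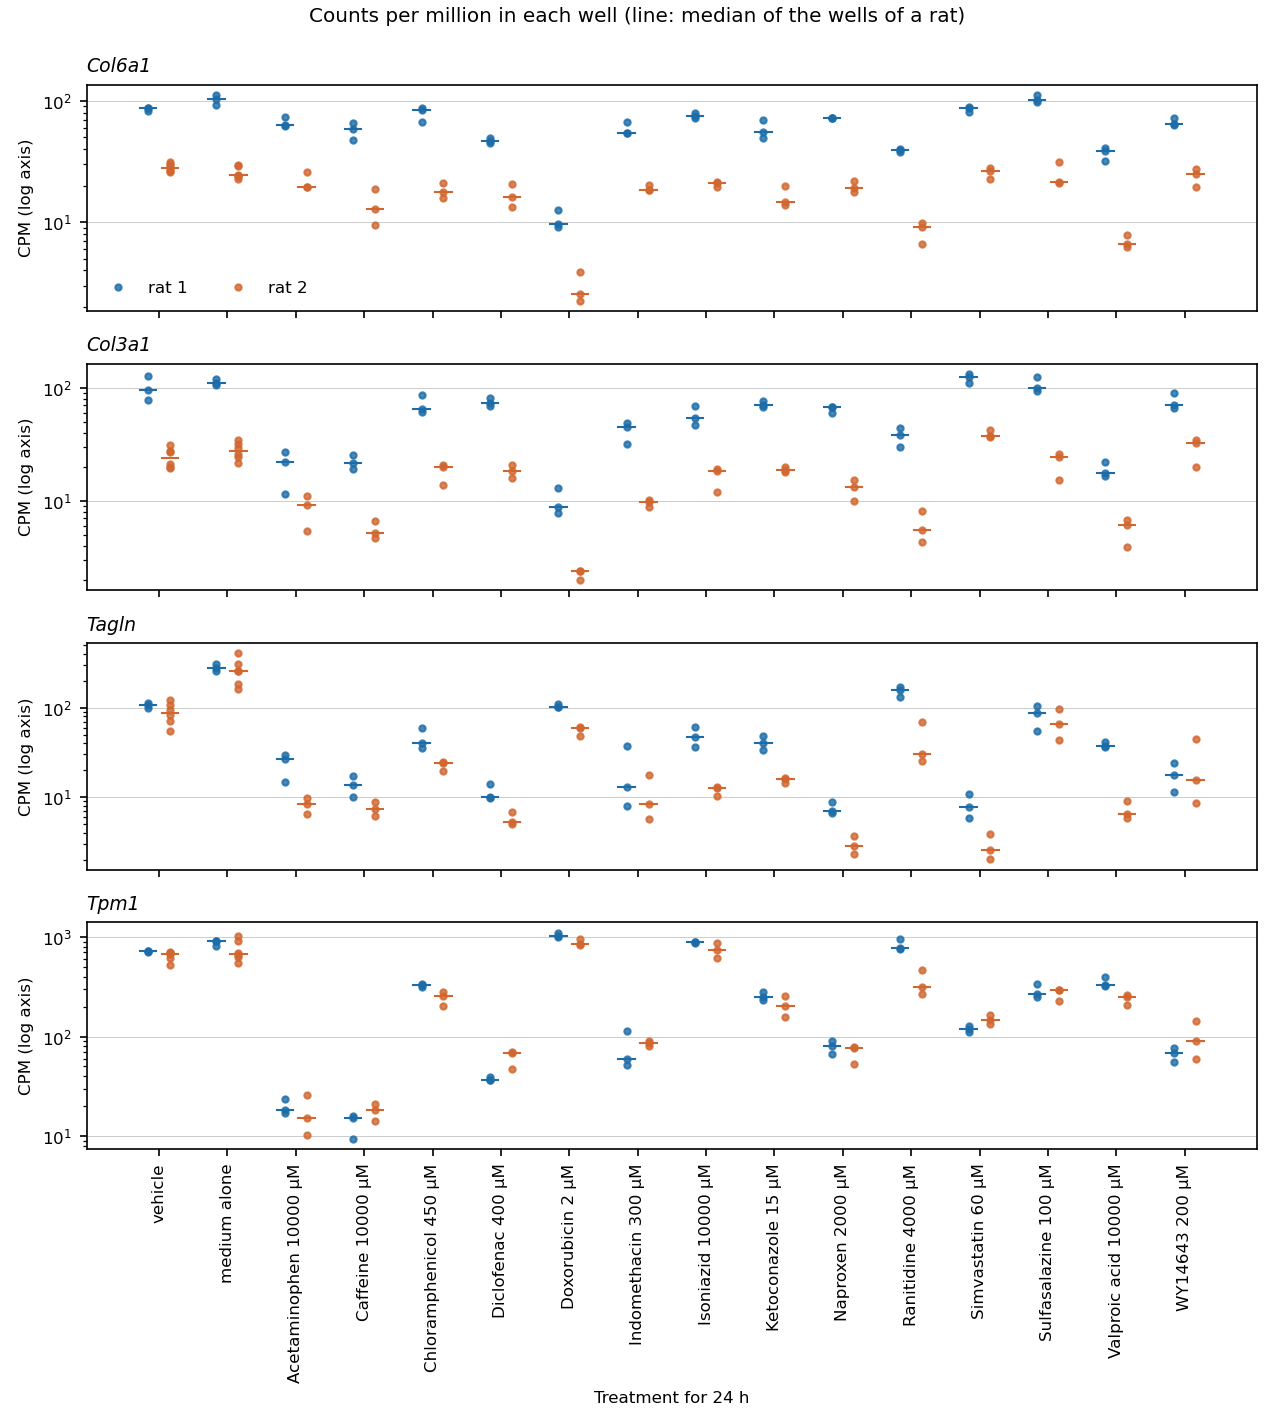
CPM (log axes) of Col6a1, Col3a1, Tagln and Tpm1 in every well of vehicle, medium alone and the 14 high concentrations, for rat 1 (blue) and rat 2 (orange), with a short line at each median. Col6a1 and Col3a1 are lowest in doxorubicin in both rats, and Tagln is lowest in simvastatin and naproxen and highest in medium alone.

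Culture medium without DMSO was compared with vehicle too. There 4 members rose, against 7.51% of all tested genes, and none fell, with a median L2FC of 0.25 over the 20 members. With replicate 1 of every group left out 2 of the 4 were called, and each rat alone gave 2. Tagln measured 255.3, 276.6 and 310.7 CPM in rat 1 against 99.3, 113.8 and 106.1 CPM in vehicle, and 258.4, 258.0, 182.6, 404.6, 160.5 and 309.8 CPM in rat 2 against 123.2, 106.6, 82.1, 93.3, 54.6 and 71.0 CPM. All medium wells lay above all vehicle wells of the same rat (L2FC 1.62, SE 0.22, adjusted p = 3.04e-09). Tpm2 (1.02, adjusted p = 0.00991), Vim (0.58, adjusted p = 0.00674) and Col1a2 (0.45, adjusted p = 0.00958) rose by less, each with wells that overlapped vehicle in 1 rat. Of these 4 members, Tpm2 had passed the count minimum only through the wells of valproic acid. The 7 stellate cell markers that are not members summed to 230.5 to 265.7 CPM in rat 1 and 149.3 to 185.0 CPM in rat 2 in medium, below vehicle in both rats, and the 11 endothelial genes to 11.5 to 13.1 and 6.46 to 11.8 CPM, above vehicle in rat 1. Their part in the result was not tested.

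At the low concentrations 31 of 280 member pairs passed the test, 29 lower and 2 higher. That is 11.1%, against 9.41% of all pairs of a gene and a low concentration, and 16 passed with replicate 2 of every group left out. By direction, 10.4% of the member pairs were lower and 0.714% higher, against 4.5% and 4.9% of all pairs. In WY14643 at 8 µM 8 members of 20 fell, against 28.2% of all tested genes, in valproic acid 5 fell, against 14.0%, in sulfasalazine 5 fell, against 8.03%, and in naproxen 4 fell, against 7.40% of all tested genes. Acetaminophen lowered 2 members, against 0.667%, ketoconazole 2, against 0.775%, doxorubicin 2, against 0.245%, and indomethacin 1, against 2.34%. No member was called in caffeine (0.118% of all tested genes), chloramphenicol (0.0883%), diclofenac (0.137%), isoniazid (0.0196%), ranitidine (0.0589%) and simvastatin (2.40%). In these 6 treatments edgeR gave an unadjusted p under 0.05 for 12 of 120 pairs, and DESeq2 called 0.

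The calls at low concentrations fell on few genes. Tpm1 fell in 7 low treatments, Serpinh1 in 5, Fn1 and Cyr61 in 4 each and Tagln in 3. Tpm1 fell by most in WY14643 at 8 µM, with 229.2, 144.3 and 139.8 CPM in rat 1 and 163.4, 106.3 and 134.4 CPM in rat 2 (L2FC -1.9, SE 0.16, adjusted p = 8.91e-22), below all vehicle wells, and next in acetaminophen at 400 µM (-1.05) and valproic acid at 400 µM (-0.95). Tagln fell in acetaminophen at 400 µM by an L2FC of -1.48 (SE 0.26, adjusted p = 0.00011). With wells summed per rat the calls of Tagln and Tpm1 in acetaminophen at 400 µM were lost, and that of Tagln also in rat 1 alone (-0.86, adjusted p = 0.161) and without the rat block (adjusted p = 0.195). The 2 rises were of Col3a1, in valproic acid at 400 µM (0.48, adjusted p = 0.0179) and WY14643 at 8 µM (0.45, adjusted p = 0.0142), and its wells overlapped vehicle in both rats. Both calls were lost with replicate 3 of every group left out (0.30, adjusted p = 0.354, and 0.19, adjusted p = 0.468), and that in WY14643 also with library totals (0.17, adjusted p = 0.345). The calls of Col1a2 and Col6a1 in doxorubicin at 0.08 µM (-0.52 and -0.44) rested on rat 2 (-1.0 and -1.02), as rat 1 gave 0.03 and 0.08.

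The 16 measured members under the count minimum were fitted without the minimum. Dcn (decorin) had the opposite direction to Bgn in 2 treatments. It had 26 to 32 counts per well in rat 1 with caffeine, 16 to 27 with ranitidine and 31 to 47 with simvastatin, against 7 to 11 in vehicle, and 13 to 32, 7 to 17 and 10 to 17 counts in rat 2 against 0 to 5. All of these wells lay above vehicle, with L2FC values of 2.64, 1.74 and 2.38 (adjusted p = 2.25e-11, 2.83e-05 and 1.8e-08). In the ST assay, where Dcn passed the minimum, the L2FC values were 2.82, 1.93 and 2.28. Bgn, its close relative, had WT values of -2.82, -1.77 and -0.52 in the same treatments, of which the last was not called. In doxorubicin Dcn was not called (-0.82, adjusted p = 0.392).

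Acta2, the smooth muscle actin that marks myofibroblasts, had 13 counts in all 3 vehicle wells of rat 1 together and 23 in the 6 of rat 2. It had 0 counts in all 6 wells of caffeine, simvastatin, valproic acid, indomethacin and ranitidine, so no fold is given. Cnn1 (calponin) had 42 to 55 counts per well of rat 1 and 3 to 39 of rat 2 in medium alone, and 28 to 50 and 47 to 65 with valproic acid, against 3 to 18 and 0 to 3 in vehicle (L2FC 2.92 and 3.38, adjusted p = 9.29e-09 and 7.5e-13). In CPM the wells of both groups lay above vehicle in each rat, and Tpm2 rose in both of them too. Cnn1 was called lower in caffeine, diclofenac, ketoconazole, naproxen and simvastatin, in which its wells held 0 to 3 counts. Thy1, a surface marker of portal fibroblasts, had 8 to 22 counts in rat 1 and 6 to 10 in rat 2 with valproic acid, against 0 to 2 and 0 to 1 in vehicle (adjusted p = 9.44e-08). Entpd2, the only tested gene of the portal fibroblast list, fell with valproic acid (L2FC -1.17, adjusted p = 1.25e-05). The 6 genes of that list that are not members summed to 4.74 to 5.06 CPM in rat 1, above vehicle (2.5 to 3.15 CPM). In rat 2 they summed to 2.41 to 6.2 CPM and overlapped vehicle (3.33 to 5.01 CPM). Mmp2, a gelatinase, had 23 to 41 and 24 to 34 counts with ranitidine, against 15 to 18 and 1 to 10 in vehicle, with no overlap (L2FC 1.85, adjusted p = 2.49e-08), and was called lower in caffeine (-1.18), indomethacin (-1.1) and valproic acid (-1.07).

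Lox, a collagen cross-linking enzyme, had 6 to 25 counts in rat 2 in medium alone against 1 to 7 in vehicle, and 3 to 5 against 0 to 4 in rat 1, where the wells overlapped (L2FC 2.27, adjusted p = 1.53e-05). Lox was also called higher in isoniazid (1.38) and valproic acid (1.12) and lower in caffeine and naproxen, in which its wells held 0 or 1 count. Loxl1 was tested in the ST assay alone, by another probe than that of the WT table. It fell there in 8 high concentrations, by most in indomethacin (-2.85) and caffeine (-2.68), and rose in acetaminophen (1.04, adjusted p = 5.66e-05) and ranitidine (0.86, adjusted p = 0.00109). Pdgfrb had 0 or 1 count in each doxorubicin well against 3 to 11 counts in rat 1 and 0 to 4 in rat 2 in vehicle (adjusted p = 0.00455). Myl9, a myosin light chain, averaged 6.33 counts and was called lower in 11 of the 29 comparisons, as Acta2 was in 13. Des, Col4a1, Col4a2, Col5a2, Lum, Postn and Col1a1 averaged 0.0538 to 3.08 counts per well, and at this depth differences of these genes were mostly not detectable. Col6a3 averaged 0.93 counts in the ST assay.

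Genes of related pathways, from lists that share no gene with the members, gave the following counts over the 14 high concentrations. Over all tested genes, 25.5% of such pairs fell and 25.4% rose. Of 17 tested TGF-beta signalling genes, 88 of 238 pairs fell (37.0%) and 43 rose (18.1%). Tgfb3, a TGF-beta ligand, fell in 13 treatments, by most in ranitidine (-4.02), and the receptor gene Tgfbr2 fell in 12 and rose in 1. Of 17 SRF and YAP targets and partners, 118 of 238 pairs fell (49.6%) and 36 rose (15.1%), with Actn1 (alpha-actinin) and Myh9 (non-muscle myosin) lower in 11 each and higher in 2. In doxorubicin 1 of these 17 fell and in simvastatin 7 fell and 1 rose, whereas in ranitidine 11 rose and 2 fell (median L2FC 0.52) and in isoniazid 7 rose and none fell. Of all 10191 tested genes, 1050 fell in doxorubicin, and 1275 fell and 1161 rose in simvastatin. In ranitidine 3295 of all tested genes rose and 3450 fell, and in isoniazid 1772 rose and 1766 fell.

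Of 12 collagen processing genes, 64 of 168 pairs fell (38.1%) and 39 rose (23.2%). Loxl4, a collagen cross-linking enzyme, fell in 13 treatments, by most in caffeine (-3.56), and P4ha2, a collagen prolyl hydroxylase, rose in 11 and fell in 1. Of 12 basement membrane and other matrix genes, 77 of 168 pairs fell (45.8%) and 26 rose (15.5%), with Thbs1 lower in 10 and higher in 2 and Lamb2 lower in 12. Of 10 integrins and matrix receptors, 72 of 140 pairs fell (51.4%) and 23 rose (16.4%), with the collagen receptor Ddr1 lower in 10 and higher in 2 and Itgb8 lowest in naproxen (-5.16). Of 14 other proteases and inhibitors, 81 of 196 pairs fell (41.3%) and 36 rose (18.4%), with Mmp24 lower in 12 and Plau (urokinase) lower in 11 and higher in 1.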

How the data were processed

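TempO-Seq libraries (28 treatments, vehicle and medium alone, 2 rats) were used. The authors aligned reads to rn6 with STAR 2.5.3a, allowing 2 mismatches, and deposited raw counts per probe and well, which were not normalized. Counts of probes with the same symbol (ignoring case) were added, and CPM are counts per 1000000 counts over all probes of a well. The main test was edgeR 4.0.16 (R 4.3.3, quasi-likelihood, TMM) on the WT counts of all wells, with rat and treatment as terms. Genes averaging under 10 counts per well were left out. Benjamini-Hochberg adjustment ran over the 10191 genes of each comparison, calls were made at an adjusted p under 0.05, and the SE is the absolute L2FC divided by the square root of F. L2FC of a rat come from its wells alone. Replicate numbers were given in order within a group, so the numbers pair no samples and the block is the rat.

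The alternatives were DESeq2 1.42.0, RLE or library-total scaling, no count minimum, an L2FC of at least 1, summed wells, no rat term, each rat alone, vehicle of the same plate, the top probe, the ST assay and leaving out each replicate. The edgeR script was tested on simulated data. Named in full are members that were called with the same sign in both rats, by size, up to 4 per role and comparison, and up to 2 genes per pathway list, those called in most high concentrations. The members and lists were chosen with earlier results of these data known.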

Additional observations from a re-analysis of the deposited data

Results flagged for a closer look

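Of 40 groups of 6 wells of rat 2 (20 tested members in vehicle and in medium alone), 2 held a well far from the other 5, and chance gives about 1 in 20. Serpinh1 measured 27.7 CPM in 1 vehicle well of plate 3, while the other 5 lay between 21.6 and 23.3 CPM, and Vim measured 13.0 CPM in 1 medium well of plate 2, while the other 5 lay between 15.1 and 16.0 CPM. These wells held 6819050 and 6752160 counts, within the range of the other wells.

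In ranitidine at 4000 µM every well of Tpm1 lay above vehicle in rat 1 (L2FC 0.35) and below it in rat 2 (L2FC -0.86). It was the only pair of a tested member and a comparison with such opposite wells, and the difference between the rats was not tested.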

How the results depend on the processing

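Of the 236 calls of a member in a comparison, DESeq2 kept 236, RLE scaling 235, the top probe 232, library totals 229, no count minimum 224 and summed wells 175. Without the rat block 147 of the 236 were kept, 86 were weaker and 3 were reversed. Rat 1 alone kept 163 of 236, rat 2 alone 203 of 215, plate vehicle in rat 2 185 of 211 and the ST assay 180 of 197.

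Counts moved by more than 1.5 times as follows. Without the rat block (no replicate block) they were 12 in diclofenac, 11 in indomethacin, 9 in chloramphenicol, ketoconazole, naproxen and ranitidine, 7 in WY14643, 4 in sulfasalazine, 3 in isoniazid, 2 in medium alone and 17 over the low concentrations. With an L2FC of at least 1 they were 13 in indomethacin, 10 in naproxen, 8 in ketoconazole, 5 in chloramphenicol, 1 in sulfasalazine and isoniazid, 2 in medium alone and 8 over the low concentrations. With wells summed per rat they were 8 in chloramphenicol, 4 in sulfasalazine, 3 in isoniazid, 1 in medium alone and 8 over the low concentrations. In rat 1 alone they were 5 in chloramphenicol, 4 in sulfasalazine, 2 in medium alone and 13 over the low concentrations, and in rat 2 alone 6 in simvastatin, 11 in sulfasalazine and 2 in medium alone. Library totals gave 19 in WY14643. These counts are over 20 members, except for 22 in rat 1 alone, 18 in rat 2 alone, 19 in the ST assay and 36 with no count minimum.

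With 1 replicate left out of every group, counts ranged from 13 to 14 in acetaminophen, 17 to 19 in caffeine, 13 to 16 in chloramphenicol, 19 in diclofenac, 11 to 13 in doxorubicin, 18 to 20 in indomethacin, 4 to 7 in isoniazid, 12 to 15 in ketoconazole and 16 to 18 in naproxen. They ranged from 14 to 16 in ranitidine, 7 to 9 in simvastatin, 5 to 9 in sulfasalazine, 17 to 18 in valproic acid, 10 to 14 in WY14643, 2 to 5 in medium alone and 16 to 29 over the low concentrations. The lowest values of isoniazid and medium came without replicate 1 and that of the low concentrations without replicate 2.

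Calls changed sign without the rat block for Col6a1 in isoniazid (0.00), Timp1 in ketoconazole (0.01) and Col6a1 in doxorubicin at 0.08 µM (0.15). They did so in rat 1 alone for Vim in ranitidine (0.07) and Col1a2 (0.03) and Col6a1 (0.08) in doxorubicin at 0.08 µM, and in the ST assay for Col5a1 in simvastatin (0.09). The causes were not tested. With 1 rat per batch and technical wells, differences between animals cannot be estimated, and counts of 10 or fewer per well limit the members under the minimum.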
